A study of Ovis aries with 32 samples.

Results

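Enzymes that add and remove methyl groups on DNA and histones, and enzymes that remove acyl groups from histones, were taken from the table of all genes by their names. The names sought were those of the DNA methyltransferases (DNMT), the TET dioxygenases, the histone deacetylases (HDAC), the sirtuins (SIRT), the lysine methyltransferases and demethylases that carry the KMT and KDM names, and EZH1 and EZH2. The search returned 44 genes of the 21271 in the table once 3 further matches, on chromosome X or excluded by name, had been set aside. Genes were tested when 4 or more of the 32 libraries had a value of 10 or more, and 43 of the 44 enzymes passed, among 12737 genes in all. The enzyme that failed was KDM4D, a histone demethylase gene with few or no reads, which never exceeded 3.61. Nearest to the limit among those that passed was KDM8, at 10 or more in 21 libraries.

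The cells were preadipocytes from perirenal fat, the depot around the kidney, of near-term fetal sheep of crossbred Columbia-Rambouillet ewes. Fetal growth restriction (FGR) came from heat exposure of the pregnant ewe, which limits the placenta, and control ewes were kept at a moderate temperature and pair-fed. The 8 groups of 4 libraries each were preadipocytes of control males (MC), control females (FC), growth-restricted males (MFGR) and growth-restricted females (FFGR), and cells of the same 4 origins after differentiation to mature adipocytes (MCD, FCD, MFGRD and FFGRD). No group carried a transgene or a deletion. The agents and length of the differentiation are not given in the sources used here, and the labels do not say whether 2 libraries of one group came from separate fetuses, so a p-value measures the spread between libraries.

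DNA methyltransferases place methyl groups on cytosine, DNMT1 copying the pattern after replication and DNMT3A and DNMT3B placing it anew, and TET enzymes oxidize those groups as a first step of their removal. Histone deacetylases and sirtuins take acyl groups off lysines, the latter at the cost of NAD, while KMT and EZH enzymes methylate histone lysines and KDM enzymes demethylate them. In fat cell precursors these enzymes are known for keeping adipogenic genes shut, for opening them on induction and for linking chromatin to the supply of NAD and methyl donors.

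Values are normalized reads summed over the transcripts of a gene, and fold changes are differences of mean log2(value + 1) between groups. A gene was called where its adjusted p in limma was below 0.05 and its fold change above 1.5. The libraries held approximately 7.81 to 21.34 M reads, so a value of 10 stood for 5.6 to 14.4 reads. In 9 libraries genes of long genomic span were low relative to short ones: the slope of the log2 deviation of a library on log10 span was -0.852 to -0.322 in these and -0.063 to 0.34 in the other 23. The 9 were MCD replicates 2 and 4, FC replicate 2, FCD replicate 2, MFGR replicate 1, MFGRD replicate 1, FFGR replicates 2 and 3 and FFGRD replicate 3, that is 4 preadipocyte and 5 differentiated libraries, and they are called the low-slope libraries here. All 10 adipocyte markers were called higher after differentiation (median log2 fold change 5.2), against 12.4% of all genes tested. Of these markers PLIN4 and DGAT2 reached at most 5.31 and 7.53 in preadipocytes. Both therefore passed the filter only through differentiated libraries and could only rise. The sum of the 10 markers was 88.3 to 2051 in preadipocytes and 419 to 187500 in differentiated cells. Only FCD replicate 4, at 419, lay within the preadipocyte range.

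The first comparison asked which enzymes differed between preadipocytes and differentiated cells. Over the 4 origins together 13 of the 43 enzymes were called, or 30.2%, against 27.2% of all genes tested (12.4% higher and 14.8% lower), a share near the background. The 7 that rose were TET1, KDM1B, EZH2, HDAC10, KMT5C, SIRT1 and SIRT4, and the 6 that fell were HDAC9, HDAC11, SIRT5, SIRT3, KDM8 and KMT5A. The median log2 fold change of the enzymes was 0.21 and that of all genes 0.03. By family, 0 of 3 DNMT, 1 of 3 TET, 1 of 2 EZH, 2 of 7 KMT, 2 of 12 KDM and 4 of 7 sirtuin genes were called, and among the deacetylases 0 of 3 of class I, 1 of 4 of class IIa and 2 of 2 of classes IIb and IV. Without the 9 low-slope libraries 14 were called, 11 of them among the 13, and without FCD replicate 4 the count was 12, with KMT5A no longer called at -0.55.

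**Figure D1:**
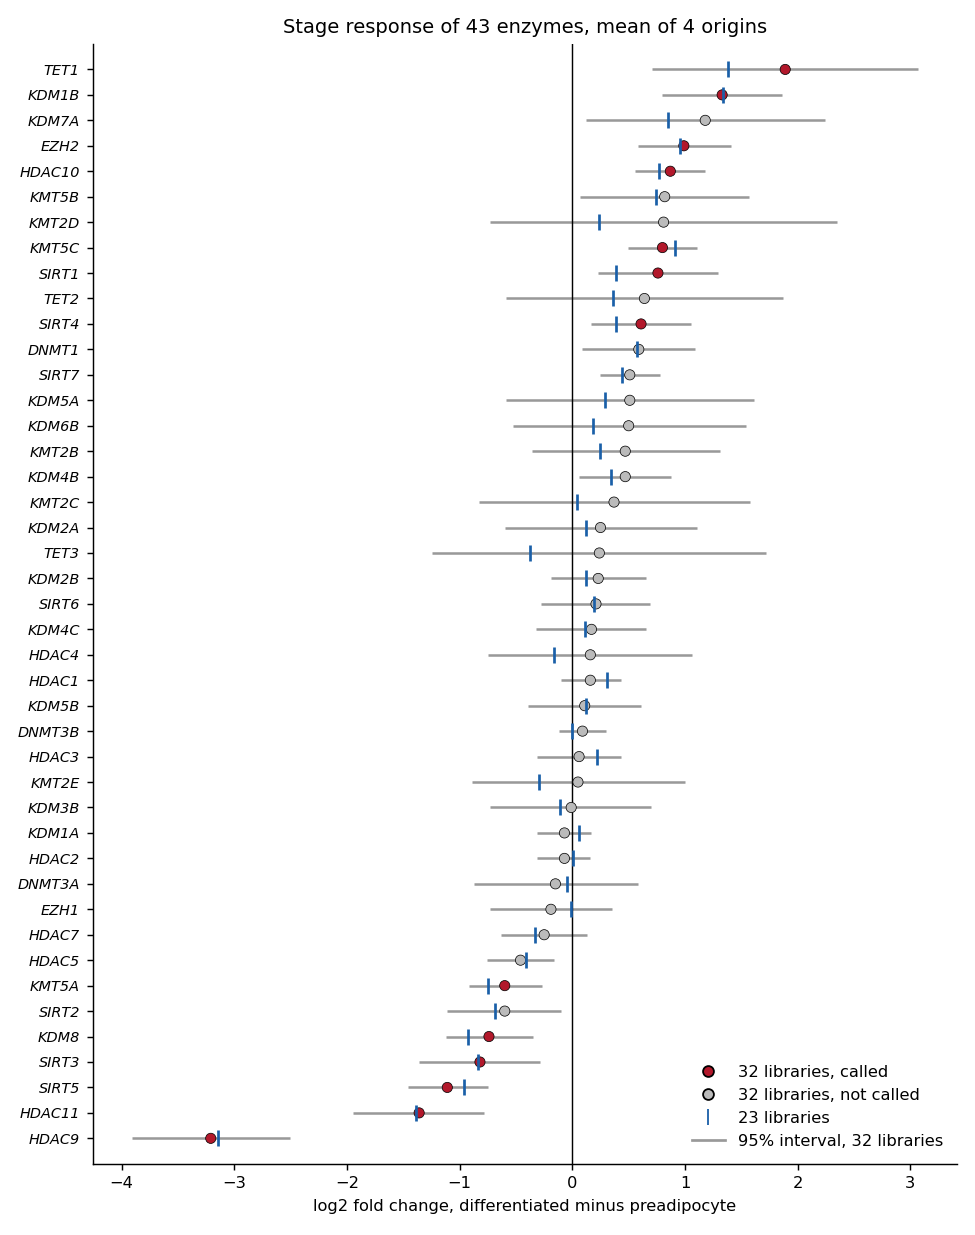
Log2 fold change (x axis, differentiated minus preadipocyte, mean of 4 origins) of the 43 enzymes, with 95% intervals from the fit of 32 libraries. Red circles mark the 13 called and grey circles the others, and blue ticks give the value from the 23 libraries that are not low-slope. HDAC9 lies farthest below 0, at -3.21, and TET1 farthest above, at 1.89.

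The largest change of any of the 43 enzymes was the fall of HDAC9, a class IIa deacetylase that binds MEF2 factors and is known as a brake on adipogenic differentiation. The gene lies on chromosome 4, 30427648 to 31124910 of Oar_rambouillet_v1.0, the build of all coordinates here. Its values in preadipocytes were 64.9, 42.6, 47.02 and 74.7 in MC, 72.9, 48.4, 95.5 and 61.8 in FC, 59.3, 79.3, 58.2 and 14.8 in MFGR and 87.5, 44.6, 156 and 140 in FFGR. After differentiation they were 14.6, 10.3, 2.54 and 2.33 in MCD, 6.83, 11.6, 6.46 and 4.93 in FCD, 12.6, 1.68, 7.75 and 18.1 in MFGRD and 6.33, 4.66, 0 and 12.7 in FFGRD. Nearly every differentiated library was therefore below every preadipocyte library, the exception being MFGRD replicate 4 at 18.1, above MFGR replicate 4 at 14.8. The fall was 9.28-fold on the log2(value + 1) scale (log2 fold change -3.21, SE 0.34, adjusted p = 4.11e-08). FFGRD replicate 3 was listed at 0, and values of this size stand for few reads, so the size of the fold is less certain than its direction. Of the 7 annotated HDAC9 transcripts 1, HDAC9-207, carried 62.8% of the sum, with a mean of 44.5 in preadipocytes and 5.47 after differentiation. Without the low-slope libraries the log2 fold change was -3.15 (adjusted p = 2.70e-06).

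The other class IIa enzymes were not called. HDAC5, which like HDAC9 shuttles between nucleus and cytoplasm, ranged from 525 to 1414 (median 865) in 16 preadipocyte libraries and from 385 to 864 (median 634) in 16 differentiated ones. Its decrease passed the adjusted p but not the fold (log2 fold change -0.46, SE 0.15, adjusted p = 0.0171). HDAC4 and HDAC7 had log2 fold changes of 0.16 and -0.25, with 95% intervals of -0.75 to 1.06 and -0.63 to 0.13.

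The class IIb enzyme HDAC10, which deacetylates polyamines, rose, and the class IV enzyme HDAC11, which removes fatty acyl groups from lysines, fell. HDAC10 (chromosome 3, 240659542 to 240664459) stood at 67.8, 47.4, 58.4 and 32.1 in MC, 71.4, 62.2, 68.1 and 60.3 in FC, 66.7, 49.95, 76.5 and 30.1 in MFGR and 80.7, 52.5, 73.6 and 60.3 in FFGR. In differentiated cells it stood at 82.7, 157, 126 and 119 in MCD, 86.6, 189, 76.5 and 87.9 in FCD, 97.5, 110, 106 and 110 in MFGRD and 96.04, 94.3, 86.7 and 129 in FFGRD. In each of the 4 origins all 4 differentiated libraries were above all 4 preadipocyte libraries, which holds in one direction for 2.4% of all genes tested. The rise was 1.82-fold (log2 fold change 0.87, SE 0.15, adjusted p = 5.47e-05). It was carried by the transcript HDAC10-201, whose mean went from 27.5 to 73.9, while the means of HDAC10-203 were 14.7 and 8.56. With the highest transcript in place of the gene sum the log2 fold change was therefore larger, 2.02 (adjusted p = 0.0117). The span of HDAC10 overlaps that of TUBGCP6, and whether reads were assigned by strand is not given in the sources used here.

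HDAC11 (chromosome 19, 60297223 to 60309858) read 70.8, 30.9, 55.5 and 50.7 in MC, 88.8, 64.1, 18.8 and 82.4 in FC, 85.4, 68.5, 35.3 and 48.8 in MFGR and 121, 109, 124 and 53.2 in FFGR before differentiation. Afterwards the values were 27.6, 11.7, 27.5 and 25.4 in MCD, 16.1, 49.6, 7.47 and 53.3 in FCD, 36.3, 32.6, 24.1 and 30.2 in MFGRD and 11.3, 8.66, 60.6 and 21.1 in FFGRD. The groups did not overlap in control males and overlapped in the other 3 origins. Over all origins the fall was 2.57-fold (log2 fold change -1.36, SE 0.29, adjusted p = 0.000483). The class I deacetylases HDAC1, HDAC2 and HDAC3, catalytic subunits of the large corepressor complexes, were not called, with log2 fold changes of 0.16, -0.07 and 0.06. HDAC1, the one with the smallest adjusted p, stood at 1776, 1983, 1962 and 2201 in MC, 1919, 2312, 1556 and 1732 in FC, 2580, 2456, 1840 and 2281 in MFGR and 1658, 2618, 2324 and 1813 in FFGR. Its differentiated values were 2188, 1378, 2994 and 3168 in MCD, 2082, 1180, 2477 and 2491 in FCD, 3075, 2428, 1851 and 2238 in MFGRD and 2044, 2336, 3213 and 2676 in FFGRD, with much overlap (log2 fold change 0.16, SE 0.13, adjusted p = 0.374, 95% interval -0.10 to 0.43).

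**Figure D2:**
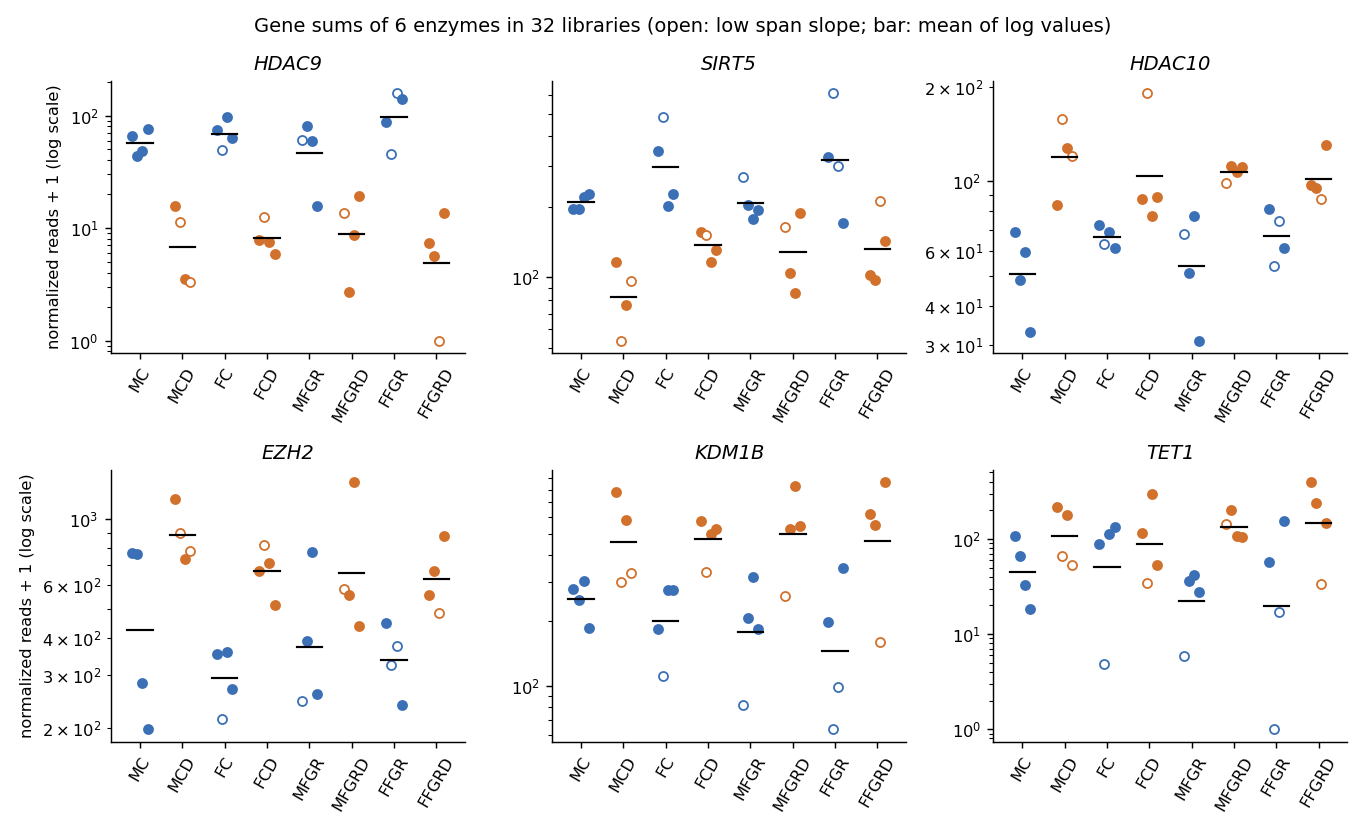
Normalized reads + 1 (y axis, log scale) of 6 enzymes in the 4 libraries of each of the 8 groups, preadipocytes in blue and differentiated cells in orange, with a bar at the mean of the log values. Open circles are the 9 low-slope libraries. HDAC9 and SIRT5 are lower and HDAC10, EZH2, KDM1B and TET1 higher after differentiation, and TET1 is lowest in open circles, with FFGR replicate 2 at 0 and FC replicate 2 at 3.81.

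The sirtuins moved in both directions: SIRT5 and SIRT3, mitochondrial enzymes, fell, and SIRT1, a nuclear deacetylase that acts on PPARG, and SIRT4, also mitochondrial, rose. SIRT5 (chromosome 20, 46453996 to 46476592), which removes succinyl and malonyl groups, had values of 194, 194, 220 and 227 in MC, 346, 481, 201 and 226 in FC, 268, 202, 177 and 193 in MFGR and 327, 610, 298 and 170 in FFGR in preadipocytes. Its values after differentiation were 115, 52.7, 74.9 and 95.2 in MCD, 156, 150, 115 and 129 in FCD, 162, 103, 84.6 and 187 in MFGRD and 101, 96.2, 212 and 142 in FFGRD. The 2 stages did not overlap in either control sex, while in growth-restricted cells single libraries crossed, such as FFGRD replicate 3 at 212 against FFGR replicate 4 at 170.1. The fall was 2.15-fold (log2 fold change -1.11, SE 0.17, adjusted p = 1.26e-05), and it was -0.96 without the low-slope libraries.

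SIRT3 (chromosome 21, 52779914 to 52804498), the main mitochondrial deacetylase, stood at 46.5, 30.2, 38.6 and 58.5 in MC, 100, 138, 78.4 and 78.2 in FC, 154, 114, 29.5 and 116 in MFGR and 64.2, 178, 135 and 76.3 in FFGR. After differentiation it stood at 14.5, 30.7, 23.8 and 53.4 in MCD, 91.96, 86.5, 51.5 and 19.8 in FCD, 64.97, 29.3, 31.8 and 111 in MFGRD and 39.02, 43.01, 74.2 and 44.3 in FFGRD. Stages overlapped in every origin, and the mean fall was 1.77-fold (log2 fold change -0.82, SE 0.26, adjusted p = 0.0152). The libraries of MC, at 30.2 to 58.5, were all below those of FC, at 78.2 to 138, while those of MFGR and FFGR overlapped. How many of all genes separate MC from FC was not counted. SIRT3 was not called between the sexes, as given below with the other sex comparisons.

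SIRT1 (chromosome 25, 25346487 to 25372503) was measured at 504, 494, 583 and 385 in MC, 460, 146, 587 and 339 in FC, 125, 421, 551 and 458 in MFGR and 410, 62.6, 212 and 502 in FFGR in preadipocytes. In differentiated cells the values were 713, 1205, 766 and 506 in MCD, 595, 590, 702 and 417 in FCD, 366, 437, 684 and 532 in MFGRD and 819, 603, 265 and 497 in FFGRD. Stages overlapped in each origin, and the 4 lowest preadipocyte values, 62.6 to 212, were those of the 4 low-slope preadipocyte libraries (log2 fold change 0.76, SE 0.26, adjusted p = 0.0235). Without the low-slope libraries SIRT1 was no longer called, since its log2 fold change was 0.39 (adjusted p = 0.0211), under the 1.5-fold limit. With library weights it was also under that limit, at 0.55 (adjusted p = 0.0064).

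SIRT4 (chromosome 17, 71825874 to 71834695), which acts on mitochondrial enzymes of fuel use, was a low-abundance gene at 17.1, 29.2, 42.7 and 25.7 in MC, 21.9, 8.94, 24.8 and 25.5 in FC, 24.4, 29.1, 39.3 and 33.6 in MFGR and 11.1, 32.2, 30.2 and 22.9 in FFGR. It stood after differentiation at 21.2, 49.8, 48.5 and 48.8 in MCD, 35.7, 45.2, 24.7 and 20.5 in FCD, 54.1, 20.1, 47.3 and 50.03 in MFGRD and 54.2, 26.6, 74.2 and 32.3 in FFGRD. The rise was 1.53-fold, just past the limit (log2 fold change 0.61, SE 0.21, adjusted p = 0.0282), and the call was lost without the low-slope libraries, where the log2 fold change was 0.39 (adjusted p = 0.168), and with library weights, at 0.34 (adjusted p = 0.17). It was also lost in 7 of the 32 fits that left out 1 library, at 0.53 to 0.58, namely without MC replicate 1, FC replicate 2, FCD replicate 2, MFGR replicate 1, MFGRD replicate 1, FFGR replicate 1 or FFGRD replicate 3.

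SIRT2, a mainly cytoplasmic deacetylase of tubulin, stood out by its spread. Its values were 250, 249, 266 and 372 in MC, 360, 765, 288 and 328 in FC, 784, 442, 288 and 325 in MFGR and 437, 1345, 841 and 350 in FFGR in preadipocytes. Differentiated cells had 194, 576, 301 and 418 in MCD, 191, 575, 200 and 218 in FCD, 448, 197, 184 and 196 in MFGRD and 228, 163, 762 and 186 in FFGRD. The 4 highest preadipocyte values, 765 to 1345, and the 5 highest differentiated values, 418 to 762, were all from low-slope libraries. SIRT2 was not called over 32 libraries (log2 fold change -0.60, SE 0.25, adjusted p = 0.0614). It was called without the low-slope libraries, at -0.69 (adjusted p = 8.63e-05), and with the replicate number as a block, at -0.60 (adjusted p = 0.011). Its span overlaps that of NFKBIB. SIRT7, a nucleolar enzyme, passed the adjusted p but not the fold (log2 fold change 0.51, SE 0.13, adjusted p = 0.00302), and SIRT6, a chromatin-bound enzyme, had a log2 fold change of 0.21 (95% interval -0.28 to 0.69).

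Among the enzymes of DNA methylation TET1 rose and no DNMT was called. TET1 (chromosome 25, 25856873 to 25977613), which oxidizes methylcytosine, read 105, 64.4, 31.8 and 17.3 in MC, 88.3, 3.81, 113 and 132 in FC, 4.89, 34.9, 41.2 and 26.6 in MFGR and 56.5, 0, 15.96 and 154 in FFGR in preadipocytes. Differentiated libraries read 214, 64.8, 178 and 52.5 in MCD, 113, 33.04, 294 and 52.7 in FCD, 143, 200, 106 and 104 in MFGRD and 395, 240, 32.7 and 147 in FFGRD. All 4 libraries of MFGRD were above all 4 of MFGR, and the other origins overlapped. The rise was 3.71-fold with a wide error (log2 fold change 1.89, SE 0.57, adjusted p = 0.0118, 95% interval 0.71 to 3.07). It was smaller and more even without the low-slope libraries, which included FFGR replicate 2, listed at 0 (1.38, adjusted p = 0.00223). TET2 and TET3 had log2 fold changes of 0.64 and 0.24 with 95% intervals of -0.59 to 1.87 and -1.25 to 1.72, too wide to show a change in this range.

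DNMT1, the maintenance methyltransferase, had preadipocyte values of 2363, 2204, 1633 and 949 in MC, 1254, 610, 1620 and 1157 in FC, 747, 1421, 2091 and 1133 in MFGR and 1341, 264, 735 and 1224 in FFGR. Its differentiated values were 3336, 993, 1979 and 1159 in MCD, 1566, 1728, 2404 and 1929 in FCD, 1460, 2077, 2447 and 1540 in MFGRD and 1383, 2254, 628 and 2927 in FFGRD. They overlapped in every origin, and the increase did not pass the test (log2 fold change 0.59, SE 0.24, adjusted p = 0.0652). It was called in 4 of 9 alternatives and in 5 of the 32 fits that left out 1 library. The 4 were quantile normalization, the replicate number as a block (adjusted p = 0.0327), the span slope as a covariate and library weights. The de novo enzymes were not called either: DNMT3B had 1275 to 2321 in preadipocytes and 1431 to 2156 in differentiated cells, with a log2 fold change of 0.09 (95% interval -0.12 to 0.30), and DNMT3A had a log2 fold change of -0.15 (95% interval -0.87 to 0.58).

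EZH2, the catalytic subunit of Polycomb repressive complex PRC2 that methylates H3K27, rose, and its paralog EZH1 did not pass the test. EZH2 (chromosome 4, 121564753 to 121598163) had 769, 761, 281 and 196 in MC, 352, 213, 358 and 268 in FC, 244, 388, 776 and 258 in MFGR and 446, 323, 375 and 236 in FFGR before differentiation. Afterwards it had 1167, 897, 735 and 779 in MCD, 666, 818, 710 and 514 in FCD, 583, 557, 1327 and 438 in MFGRD and 553, 670, 483 and 873 in FFGRD. Stages did not overlap in either female origin, while MC replicates 1 and 2 and MFGR replicate 3 reached differentiated levels. The rise was 1.99-fold (log2 fold change 0.99, SE 0.20, adjusted p = 0.000326), and EZH1 had a log2 fold change of -0.19 (95% interval -0.73 to 0.35).

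Markers of proliferating cells moved with EZH2. Of 12 such genes tested 9 were higher after differentiation and 0 lower (median log2 fold change 1.08), against 12.4% higher and 14.8% lower of all genes. None of the 12 was at 0 in any library. Their sum ranged from 3773 to 17170 in preadipocytes and from 6304 to 16890 in differentiated cells. The largest preadipocyte sums, 17170 in MC replicate 1, 13570 in MC replicate 2 and 11930 in MFGR replicate 3, came from the libraries with the highest EZH2 (769, 761 and 776) and the highest DNMT1 (2363, 2204 and 2091). No other preadipocyte library had a sum above 6669, EZH2 above 446 or DNMT1 above 1633. In differentiated cells the largest sum was in MCD replicate 1 (EZH2 1167, DNMT1 3336) and the smallest in FFGRD replicate 1 (553 and 1383). EZH2 itself was highest there in MFGRD replicate 3, at 1327 with a sum of 15250. It was lowest in MFGRD replicate 4, at 438 with a sum of 8279. DNMT1 lay below the 1383 of FFGRD replicate 1 in FFGRD replicate 3 (628), MCD replicate 2 (993) and MCD replicate 4 (1159). The sums of these low-slope libraries were larger, at 9125, 10470 and 8216. The part of proliferating cells in these values was not tested.

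Of the lysine methyltransferases 2 of the 3 that act on H4K20 were called, in opposite directions. KMT5C, which places the di- and trimethyl marks, rose, and KMT5A, which places the monomethyl mark, fell. KMT5C (chromosome 14, 66821551 to 66828088) stood at 39.1, 28.3, 53.96 and 35.7 in MC, 79.6, 53.6, 61.5 and 42.5 in FC, 41.8, 49.7, 33.2 and 30.5 in MFGR and 48.7, 58.7, 33.98 and 33.5 in FFGR. After differentiation it stood at 83.7, 92.2, 95.1 and 39.5 in MCD, 102, 73.1, 89.1 and 72.8 in FCD, 52.3, 93.02, 63.6 and 72.4 in MFGRD and 63.6, 82.03, 99.97 and 82.5 in FFGRD. Stages did not overlap in either growth-restricted origin, as for 11.6% of all genes in MFGR and 11.7% in FFGR. Both control origins did overlap, in males with MCD replicate 4 at 39.5 below MC replicate 3 at 53.96. KMT5C was not called for a difference of response between growth-restricted and control origins. Its rise over all origins was 1.74-fold (log2 fold change 0.80, SE 0.15, adjusted p = 0.000133).

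KMT5A (chromosome 17, 61199944 to 61217007) had preadipocyte values of 555, 651, 469 and 550 in MC, 858, 354, 568 and 395 in FC, 332, 587, 797 and 681 in MFGR and 894, 336, 468 and 411 in FFGR. It had 401, 336, 413 and 325 in MCD, 360, 703, 451 and 290 in FCD, 224, 256, 365 and 406 in MFGRD and 368, 306, 284 and 318 in FFGRD in differentiated cells. Stages were separate only in control males. The fall of 1.51-fold lay at the limit (log2 fold change -0.60, SE 0.16, adjusted p = 0.00457), and the call was lost in 12 of the 32 fits that left out 1 library, at -0.58 to -0.52: without MC replicate 2, MCD replicate 4, FC replicates 1 or 3, FCD replicates 1 or 4, MFGR replicates 3 or 4, MFGRD replicates 1 or 2, FFGR replicate 1 or FFGRD replicate 3.

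KMT5B, the paralog of KMT5C, read 873, 660, 816 and 477 in MC, 739, 108, 1049 and 715 in FC, 150, 473, 694 and 755 in MFGR and 491, 70.99, 207 and 805 in FFGR. Differentiated cells read 1327, 356, 971 and 338 in MCD, 1134, 411, 1427 and 637 in FCD, 402, 1122, 1408 and 1206 in MFGRD and 1465, 1549, 278 and 823 in FFGRD. Its increase was not called (log2 fold change 0.82, SE 0.37, adjusted p = 0.0885), but was without the low-slope libraries at 0.74 (adjusted p = 0.00183) and with the replicate block (adjusted p = 0.0189). The H3K4 methyltransferase genes KMT2B, KMT2C and KMT2D and the related KMT2E had log2 fold changes of 0.47, 0.37, 0.81 and 0.05, with intervals as wide as -0.73 to 2.35 for KMT2D, and none was called.

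Of the 12 demethylases tested KDM1B rose and KDM8 fell. KDM1B (chromosome 20, 42716025 to 42757634), a flavin-dependent enzyme of H3K4, had 279, 248, 304 and 184 in MC, 182, 111, 277 and 276 in FC, 80.9, 206, 318 and 182 in MFGR and 196, 62.5, 98.7 and 349 in FFGR in preadipocytes. In differentiated cells it had 781, 300, 579 and 330 in MCD, 572, 335, 500 and 528 in FCD, 258, 526, 828 and 545 in MFGRD and 615, 547, 158 and 864 in FFGRD. All 4 libraries of FCD were above all 4 of FC, and the other origins overlapped. The rise was 2.51-fold (log2 fold change 1.33, SE 0.26, adjusted p = 0.000201) and was 1.34 without the low-slope libraries. KDM1A, its better known paralog, had a log2 fold change of -0.07 (95% interval -0.31 to 0.17).

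KDM8 (chromosome 3, 116071363 to 116091970), a JmjC dioxygenase also known as JMJD5, was near the lower limit of detection with 24.4, 22.1, 15.2 and 15.7 in MC, 13.7, 15.3, 23.8 and 11.6 in FC, 15.3, 19.4, 22.1 and 17.8 in MFGR and 6.87, 11.2, 17.02 and 19.1 in FFGR. It had 6.67, 11.7, 5.12 and 9.28 in MCD, 10.7, 27.8, 10.7 and 9.91 in FCD, 9.04, 10.1, 6.21 and 6.90 in MFGRD and 14.4, 7.05, 9.43 and 6.76 in FFGRD after differentiation. Both male origins showed no overlap, and FCD replicate 2 stood above every FC library. The fall was 1.67-fold (log2 fold change -0.74, SE 0.19, adjusted p = 0.00305), and at these values it rests on few reads. KDM7A, which demethylates H3K9 and H3K27, was not called (log2 fold change 1.18, SE 0.52, adjusted p = 0.0822) but was without the low-slope libraries at 0.85 (adjusted p = 0.0046) and with the replicate block (adjusted p = 0.0105). The other 9 demethylases had log2 fold changes between -0.07 and 0.51.

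Within single origins fewer enzymes were called, 4 libraries against 4. In control males 3 of 43 were called (HDAC10 higher, HDAC9 and SIRT5 lower), or 6.98%, against 8.35% of all genes (3.8% higher and 4.55% lower). In control females the only one was HDAC9, or 2.33% of the enzymes, against 2.52% of all genes (1.08% higher and 1.44% lower), and it was not called without FCD replicate 3. HDAC9 was also the only one in growth-restricted males, or 2.33%, against 5.13% of all genes (2.03% higher and 3.1% lower), and was not called without MFGR replicate 2, MFGRD replicate 2 or MFGRD replicate 3. In growth-restricted females 5 were called (KDM1B and KMT5C higher, HDAC11, HDAC9 and SIRT5 lower), or 11.6%, against 10.3% of all genes (4.33% higher and 5.99% lower). That count was 1 without FFGRD replicate 2 and 7 without FFGRD replicate 3. With the replicate number as a block, 5 were called in control males (EZH2 and KMT5C added), 3 in control females (EZH2 and KDM1B added) and 1 in growth-restricted males, KDM1B in place of HDAC9.

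The log2 fold changes of HDAC9 were -3.07 in MC, -3.08 in FC, -2.39 in MFGR and -4.32 in FFGR. Those of EZH2 were 1.05, 1.19, 0.83 and 0.90 in the same order, and those of SIRT5 were -1.35, -1.11, -0.70 and -1.27. Direction was thus the same in the 4 origins for these genes. Libraries of the 2 stages did not overlap for 7 enzymes in MC (16.3% of all genes), 5 in FC (10.0%), 6 in MFGR (11.6%) and 4 in FFGR (11.7%), and over 16 against 16 libraries for 0 enzymes (1.09%).

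The second comparison asked whether growth restriction changed the enzymes. In preadipocytes, in differentiated cells and in the response to differentiation 0 of 43 enzymes were called by limma, and 0.0% of all genes were called in each. At an unadjusted p under 0.05 there were also 0 enzymes in each, against 2.7%, 1.07% and 1.04% of all genes. These comparisons share libraries, since the response is built from the same groups. Averaged over the sexes, the 95% intervals below show how large a change the data still allow.

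In preadipocytes the smallest p belonged to SIRT2 (log2 fold change 0.64, 95% interval -0.07 to 1.35, unadjusted p = 0.0771, adjusted p = 0.84), SIRT3 (log2 fold change 0.58, 95% interval -0.17 to 1.34, unadjusted p = 0.125, adjusted p = 0.84) and SIRT1 (log2 fold change -0.54, 95% interval -1.29 to 0.21, unadjusted p = 0.149, adjusted p = 0.84). SIRT3 was higher in MFGR than in MC on average (1.05), but MFGR replicate 3 at 29.5 lay below every MC library, and between FFGR and FC the difference was 0.12. The 4 largest values of SIRT2 and the 4 lowest of SIRT1 in preadipocytes were those of low-slope libraries, of which 1 was control and 3 were growth-restricted. Without them the log2 fold changes were 0.29 for SIRT2, 0.25 for SIRT3 and -0.01 for SIRT1.

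In growth-restricted preadipocytes 30 of the 43 enzymes had a negative log2 fold change, with a median of -0.27 against -0.02 over all genes. TET1 and TET2 were lowest, at -1.19 and -1.18, with 95% intervals of -2.86 to 0.48 and -2.92 to 0.56. Without the low-slope libraries the median was 0.03, with 26 of 43 positive, and TET1 and TET2 were at -0.30 and -0.27. The direction of the enzymes as a set was thus not kept without the 4 low-slope preadipocyte libraries. Most of these were growth-restricted, so low slope and growth restriction cannot be told apart in them.

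In differentiated cells the smallest p belonged to KMT5A (log2 fold change -0.35, 95% interval -0.81 to 0.11, unadjusted p = 0.133, adjusted p = 1), SIRT5 (log2 fold change 0.29, 95% interval -0.21 to 0.79, unadjusted p = 0.239, adjusted p = 1) and SIRT1 (log2 fold change -0.40, 95% interval -1.15 to 0.35, unadjusted p = 0.288, adjusted p = 1). KMT5A ranged from 325 to 413 in MCD, from 290.1 to 703 in FCD, from 224 to 406 in MFGRD and from 284 to 368 in FFGRD, so the groups overlapped in both sexes. The median of the enzymes was 0.02, with 23 of 43 positive, against -0.01 over all genes. Without the low-slope libraries the log2 fold changes were -0.20 for KMT5A, 0.05 for SIRT5 and -0.14 for SIRT1. Of the other enzymes called for stage TET1 stood at 0.53 (95% interval -1.14 to 2.19) and SIRT3 at 0.36 (-0.39 to 1.12), and the rest lay between -0.26 and 0.26, among them -0.17 for HDAC9 (-1.17 to 0.82), -0.25 for EZH2 (-0.84 to 0.33) and 0.04 for KDM1B (-0.71 to 0.79).

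**Figure D3:**
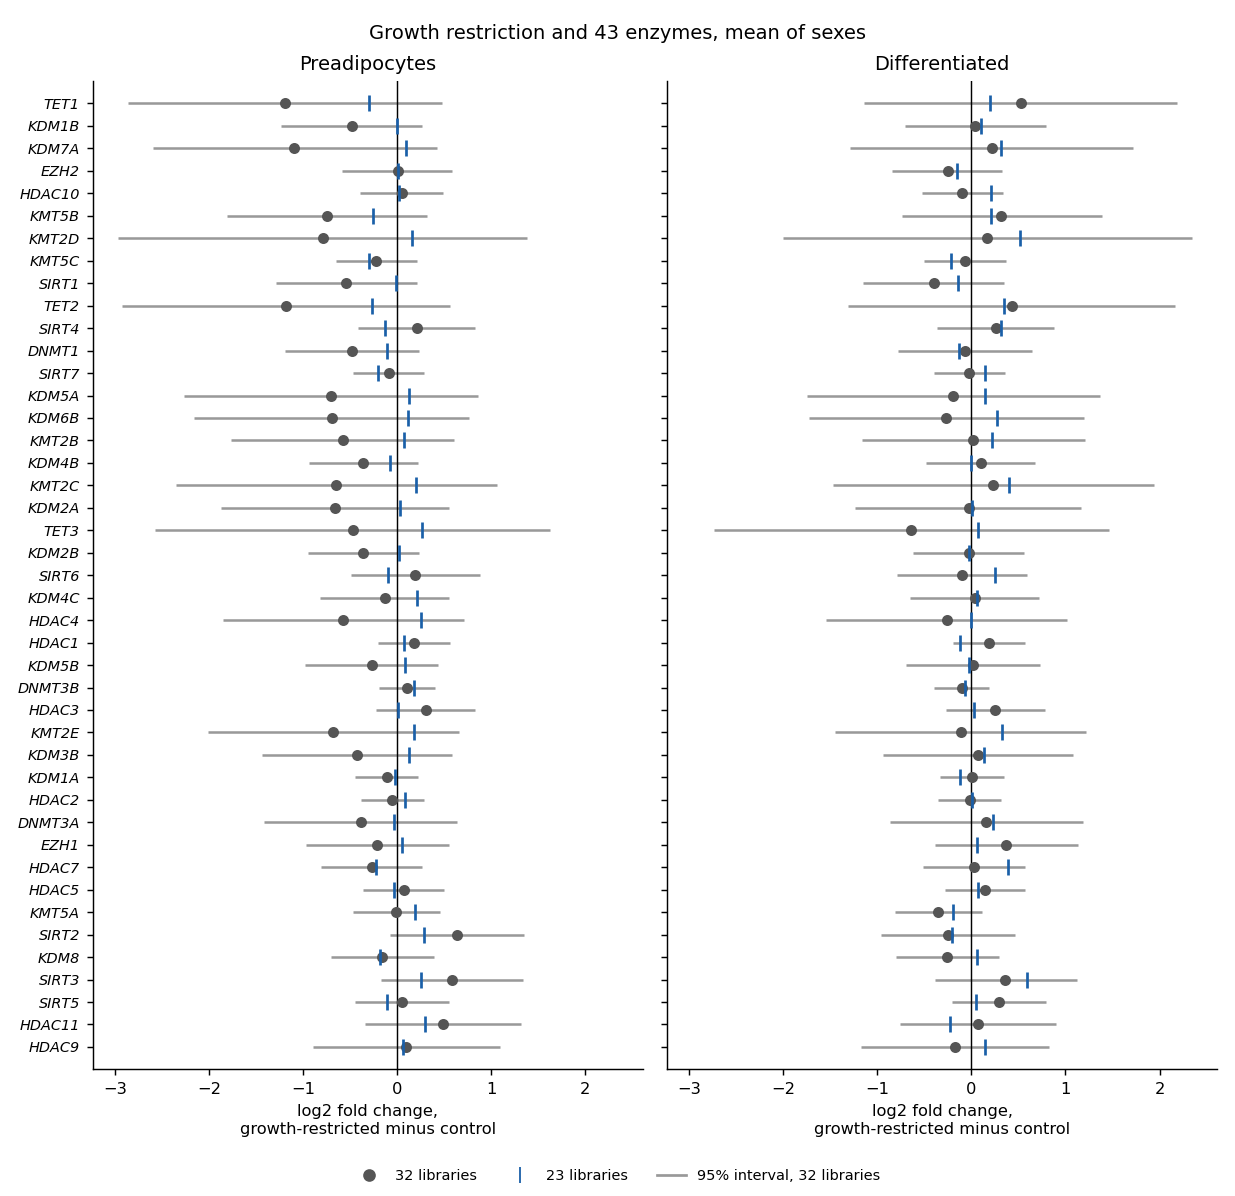
Log2 fold change (x axis, growth-restricted minus control, mean of sexes) of the 43 enzymes in preadipocytes (left) and differentiated cells (right), in the order of the stage response. Grey circles and bars are the values and 95% intervals from 32 libraries, and blue ticks the values from the 23 libraries that are not low-slope. All intervals include 0, and in preadipocytes the ticks lie nearer to 0 than the circles for TET1, TET2 and KDM7A.

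In the response to differentiation, growth-restricted minus control, the smallest p belonged to SIRT2 (log2 fold change -0.89, 95% interval -1.90 to 0.12, unadjusted p = 0.082, adjusted p = 0.988), TET1 (log2 fold change 1.71, 95% interval -0.64 to 4.07, unadjusted p = 0.147, adjusted p = 0.988) and KMT5B (log2 fold change 1.07, 95% interval -0.44 to 2.57, unadjusted p = 0.157, adjusted p = 0.988). For TET1 the response was 1.25 in MC, 0.81 in FC, 2.59 in MFGR and 2.90 in FFGR, each with a standard error of 1.15. The 95% interval for TET1 ran from -0.64 to 4.07, and a difference in response was not detectable at this spread. Without FFGR replicate 2, the library listed at 0, the difference for TET1 was 1.00. Without all 9 low-slope libraries the differences in response were -0.50 for SIRT2, 0.51 for TET1 and 0.46 for KMT5B. Within each sex, and between the sexes in the difference of response, 0 enzymes were called as well.

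Sexes were compared within a stage, and 0 of 43 enzymes and 0.0% of all genes were called. In preadipocytes 1 enzyme had an unadjusted p under 0.05, SIRT5, lower in males (log2 fold change -0.56, 95% interval -1.06 to -0.06, unadjusted p = 0.0307, adjusted p = 0.846), where 4.32% of all genes had one. SIRT3 was also at -0.70 (95% interval -1.45 to 0.06). In differentiated cells 0 enzymes had one, and SIRT5 and SIRT3 had -0.39 and -0.43.

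Many of the enzymes differed in level between the low-slope libraries and the others. In the low-slope libraries 20 of 43 enzymes were lower by more than 1 log2 than in the other 23, or 46.5%, against 24.2% of all genes, 2 were higher by that margin and 21 were within it. The genes below were singled out after their values were seen, and no test was made, since the slope was itself measured on these libraries. The families differed: 3 of 3 TET, 5 of 7 KMT, 8 of 12 KDM and 2 of 3 DNMT genes were lower by that margin, while 0 of 7 sirtuins and 0 of 3 class I deacetylases were.

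KMT2D, an H3K4 methyltransferase of enhancers, had 7.62 to 618 (median 70.3) in the 9 and 262 to 1787 (median 1201) in the 23. The differences did not simply rank by genomic span. KMT2D, at -3.83 log2, spans 32134 bases and TET2, at -3.29, spans 194691. HDAC9, with the longest span of the 43 enzymes, 697263, was at -0.41. KMT2C had 41.9 to 466 against 346 to 1740, and KDM5A, an H3K4 demethylase, had 47.2 to 672 against 511 to 1558. For TET2, KMT5B, KDM3B and EZH1, 4 of the 43, each of the 9 libraries was below each of the 23, which holds for 4.01% of all genes, and TET2 had 22.2 to 215 in the 9 and 319 to 1332 in the 23. Opposite to these, SIRT2 had 418 to 1345 in the 9 and 163 to 442 in the 23, and SIRT6 had 35.9 to 104 against 16.3 to 38.5. EZH2, called for stage, had medians of 483 and 553 and so hardly moved with the slope. The part of RNA quality in these differences was not tested, and no measure of it is in the values used here.

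**Figure D4:**
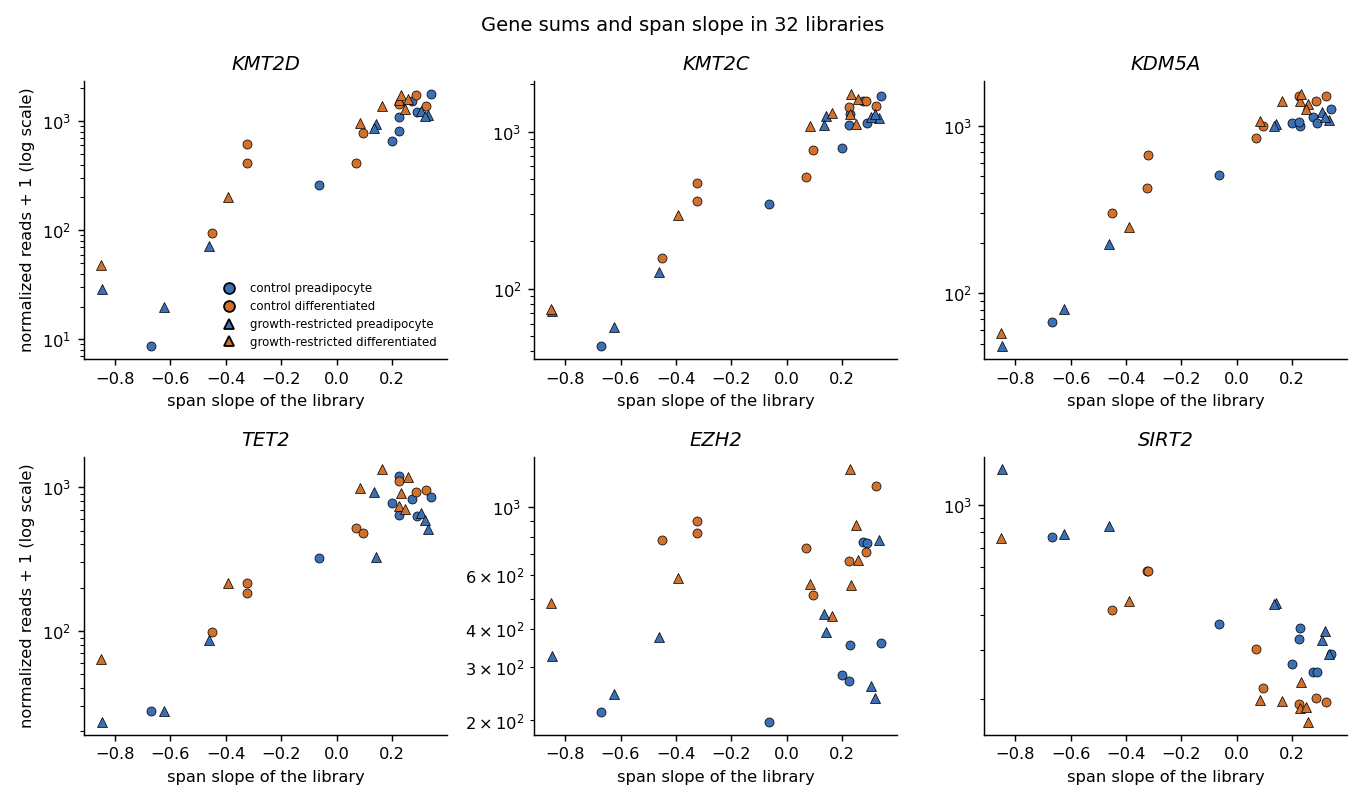
Normalized reads + 1 (y axis, log scale) of 6 enzymes against the span slope of the library (x axis, change in log2 deviation per log10 of genomic span), 1 point for each of 32 libraries. Color gives the stage and shape the growth restriction, as in the key. KMT2D, KMT2C, KDM5A and TET2 fall and SIRT2 rises toward negative slopes. EZH2 hardly moves with the slope and is mostly higher after differentiation, with overlap between the stages.

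The partners of these enzymes were read from lists of complex members and related enzymes. In the 7 lists together 13 of 89 genes tested were called for stage, or 14.6%, against 27.2% of all genes. Of 8 DNA methylation partners 1 rose, UHRF1, which brings DNMT1 to replicated DNA (log2 fold change 1.78, adjusted p = 0.00179), and 0 fell. Of 8 PRC2 partners MTF2 rose (0.74, adjusted p = 0.00588) and PHF1 fell (-0.72, adjusted p = 0.000693), with 6 not called. Of 13 histone acetyltransferases 1 rose, HAT1, which acetylates new histone H4 (0.67, adjusted p = 0.00109), and 12 were not called. Of 28 methyltransferases of other names SUV39H2 rose (0.82, adjusted p = 0.00662) and EHMT2 (-0.79, adjusted p = 1.16e-06) and SMYD2 (-1.36, adjusted p = 1.52e-05) fell.

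Among 13 subunits of deacetylase corepressors CHD3 alone was called, at -1.06 (adjusted p = 0.00913). Of 8 listed subunits of the KMT2 complexes PAXIP1 was called, at 0.95 (adjusted p = 5.74e-05), and 7 were not, among them WDR5, RBBP5 and ASH2L. In the supply of methyl donors and cofactors 2 of 11 genes rose and 2 fell: MAT2A, which makes S-adenosylmethionine, was at 0.65 (adjusted p = 0.0029) and MTR at 1.10 (adjusted p = 0.0283), and SHMT2 at -0.77 (adjusted p = 0.015) and IDH2 at -0.79 (adjusted p = 0.0149). None of the genes of these lists was called for growth restriction or for a difference of response.

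Markers of other cell types were read beside the stage comparison, in which 12.4% of all genes were called higher and 14.8% lower. Of 9 preadipocyte or fibroblast markers THY1 rose and VIM, LUM, DCN and PDGFRB fell, and of 4 smooth muscle or pericyte markers CNN1, ACTA2 and DES fell. The adrenal genes CYP11A1, CYP17A1 and STAR rose, 3 of 3 tested, while the kidney gene UMOD was listed at 0 in all 32 libraries. The summed level of this list was 1.39 to 89.0 in preadipocytes and 12.8 to 1353 in differentiated cells. The value of 1353 came from FCD, where the median was 39.5. CYP17A1 was listed at 0 in all 16 preadipocyte libraries and CYP11A1 in 15. Both therefore passed the filter only through differentiated libraries and could only rise. The endothelial marker KDR (1 of 3 tested) and the immune marker CD68 (1 of 1 tested) fell, with summed levels of at most 284 and 531 in any library, and of 2 mesothelial markers 0 were called. The part of these cells in the enzymes' values was not tested, and in bulk cultures fewer cells of a type cannot be told apart from less RNA per cell.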

How the data were processed

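RNA of 32 cultures, 4 in each of 8 groups, was sequenced from Swift RNA libraries on a NextSeq500. The authors discarded reads of low Phred score, used Salmon for transcript abundance on Oar_rambouillet_v1.0 with Ensembl gene models, and normalized with DESeq2. The labels name FastQC 0.11.9. The signal deposited for each transcript and library is in normalized reads, which are not whole reads, so no count model was used. The group means, the signed fold change score and the p-value columns deposited with it hold the authors' own comparisons and were not read.

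Transcripts were summed per gene, and log2(sum + 1) was fitted in limma 3.58.1 (R 4.3.3), with an empirical Bayes trend, 1 mean for each of the 8 groups and Benjamini-Hochberg adjustment over 12737 genes. Genes had to reach 10 in at least 4 libraries. Calls needed an adjusted p below 0.05 and a fold above 1.5. The fit was tested on simulated data. The libraries hold 9.52 to 21.22 M normalized reads, and any pair of them correlated at 0.6766 to 0.9725 over log2 gene sums. The deposited groups were taken from the sample titles. Same-numbered libraries of the 2 stages deviated together in all 4 pairs of MC, FC and MFGR (correlation 0.162 to 0.671) and in 3 of 4 of FFGR (0.331 to 0.565), where replicate 2 had -0.398. Alternatives tried were quantile normalization, a pseudocount of 0.1, all genes above 0, the study's filter of 20 per M reads in 3 libraries, the highest transcript, only the groups compared, the replicate block, library weights, the span slope as a covariate, leaving out each library and, added after the data were seen, leaving out the low-slope libraries.

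The members and lists were chosen with earlier results of these data known. Enzymes described library by library were all those called for stage, the 3 of smallest p for growth restriction in each comparison, and the one of smallest adjusted p in a family without such a member. The partner lists were those of DNA methylation, PRC2, acetyltransferases, other methyltransferases, corepressors, KMT2 complexes and methyl donors (1 gene of the last is not reported here), and the marker lists those of 8 cell types. No sequence is shown, since no genome of the build was used here.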

Additional observations from a re-analysis of the deposited data

Results flagged for a closer look

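Single libraries stood apart from the other 3 of their group, by a gap wide against the range of the group (Dixon's ratio at the 95% level), in 13 of 136 groups of 4 libraries of the 17 enzymes described library by library. Chance gives this in about 5% of groups that are independent and normally distributed. The groups here are not independent, since all enzymes were read in the same libraries, so the count is no test against chance. FCD replicate 2 was highest for HDAC10 at 189.2, for KDM8 at 27.82 and for SIRT2 at 574.9, and FC replicate 2 was lowest for KMT5B at 108.2, for SIRT4 at 8.94 and for TET1 at 3.813. SIRT2 was also highest in MC replicate 4 at 371.9 and in MFGRD replicate 1 at 447.6. HDAC11 was lowest in MCD replicate 2 at 11.66 and in FFGR replicate 4 at 53.2, KMT5C in MCD replicate 4 at 39.51, and SIRT4 in MCD replicate 1 at 21.18 and in MFGRD replicate 2 at 20.11. Of these 13 values, those of FCD replicate 2, FC replicate 2, MFGRD replicate 1, MCD replicate 2 and MCD replicate 4 came from low-slope libraries.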

How the results depend on the processing

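None of the 17 enzymes described library by library changed direction under any alternative in the stage change over the 4 origins, nor did the 3 of smallest p in each comparison of growth restriction or response. Single origins varied more, and in MC the enzymes' median went from -0.22 (16 of 43 positive) to 0.24 (29 positive) with the span covariate and to 0.08 (25 positive) without the low-slope libraries. The counts for growth restriction and for the difference of response were 0 throughout. Counts called for stage over the 4 origins were 13 to 19 apart from the filter of 20 per M reads, which left 5, since HDAC10, HDAC11, HDAC9, KDM8, KMT5C, SIRT3, SIRT4 and TET1 were no longer tested or called, and 12 to 17 when 1 library was left out (17 without FFGR replicate 4). The covariate for span slope gave 19, adding DNMT1, KDM7A, KMT2D, KMT5B, SIRT2 and TET2 to the 13, and library weights gave 15, adding DNMT1, KDM7A, KMT5B and SIRT2 and losing SIRT1 (0.55, adjusted p = 0.0064) and SIRT4 (0.34, adjusted p = 0.17).

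In MC, where 3 were called, the count was 1 with the filter of 20 per M reads and with the highest transcript, 5 with the replicate block, 10 with the span covariate, 7 with library weights and 5 without the low-slope libraries, and 3 to 4 when 1 library was left out. In FC, where 1 was called, it was 0 with a pseudocount of 0.1 and with the filter of 20 per M reads, 3 with the replicate block, 8 with the span covariate, 7 with library weights, 2 without the low-slope libraries and 0 to 1 when 1 library was left out. In MFGR, where 1 was called, it was 0 with a pseudocount of 0.1, the filter of 20 per M reads, the highest transcript or only the groups compared, 13 with the span covariate, 9 with library weights, 7 without the low-slope libraries and 0 to 2 when 1 library was left out. In FFGR, where 5 were called, it was 2 with the filter of 20 per M reads, 3 with the highest transcript, 1 with only the groups compared, 8 with the replicate block, 12 with the span covariate and 1 to 7 when 1 library was left out. The cause was not tested. Same-numbered libraries deviated together in every pair but FFGR replicate 2, and with the block the count over the 4 origins was 17, adding DNMT1, KDM7A, KMT5B and SIRT2.

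Enzymes at values near 10, such as KDM8 and HDAC9 after differentiation, rest on few reads, and TET2, TET3, KMT2C and KMT2D varied so widely between libraries that a moderate stage change was not detectable over the 32 libraries, although TET2 and KMT2D were called with the span covariate.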
